A study of Mus musculus with 6 samples.

Results

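The 31 genes described here encode enzymes and regulators of cholesterol and fatty acid synthesis, and were taken by gene symbol from the 52550 genes listed in every library. They comprise 7 enzymes from acetoacetyl-CoA to farnesyl diphosphate, 11 enzymes from squalene to cholesterol, 5 genes of sterol sensing, the sterol carrier Stard4 and 7 genes of fatty acid synthesis. Each symbol matched a single row, and all 31 passed the filter on low values. The symbols were chosen by pathway, without a threshold, but with the differences in normalised reads between the knockout and wild-type libraries described here already known. Counts and p-values of the members are therefore a description of these 6 libraries and no independent evidence that the pathway changed. Genes of LDL uptake are not analysed here.

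The libraries hold poly(A) RNA of mouse cells that the labels call hematopoietic stem cells, taken from bone marrow. The wild-type group (WT, 3 libraries) had the genotype Ppp2caf/f, with floxed alleles of Ppp2ca, the catalytic subunit gene of protein phosphatase 2A, and no Cre is named for it. The knockout group (KO, 3 libraries) had the genotype VAV1crePpp2caf/f, in which the same floxed alleles meet a recombinase under Vav1 control, a driver active across blood cells. Age, sex and the surface markers of the sort are not given in the sources used here. Nothing says that each library is a different animal, so a p-value here speaks only of the spread among the libraries, which may be technical. The comparison asks which genes differ between KO and WT libraries.

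Cells make cholesterol from acetyl-CoA through mevalonate, isoprenoid diphosphates, squalene and lanosterol, and make fatty acids from cytosolic acetyl-CoA through malonyl-CoA. Both routes are switched on by sterol regulatory element binding proteins (SREBPs), which are held in the endoplasmic reticulum by SCAP and the INSIG proteins while sterols are plentiful, and travel to the Golgi for cleavage when sterols fall. Blood progenitors draw on these routes for membranes and for the lipid anchors of signalling proteins.

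Values are normalised read counts, that is, reads per gene divided by a size factor for each library. They are not divided by gene length unless so stated. The libraries held 37951985 to 58692037 reads over genes. Ppp2ca stood at 32909, 33451 and 33169 normalised reads in WT, and the KO libraries at 23728, 22419 and 24046 averaged 70.5% of that. Its log2 fold change was −0.50 ± 0.07 (SE, limma adjusted p = 0.00268), and the deleted part of the gene cannot be read from whole-gene values. Of 20136 genes tested, 10.3% were called higher and 13% lower in KO (limma with Benjamini-Hochberg adjustment, adjusted p below 0.05). That was 2069 higher and 2622 lower genes, or 1337 and 3510 when all libraries were scaled to equal totals. The marker lists moved too. Of 12 stem cell markers 11 fell, and their summed level was 88279 to 100593 in WT and 31028 to 49177 in KO. The largest terms of that sum were Cd34 and Kit, with means of 42732 and 25717 in WT and 17819 and 16302 in KO. Of 9 granulocyte-monocyte progenitor markers 8 rose, and their summed level was 1267300 to 1499910 in WT and 1879090 to 2092510 in KO. That sum was above the sum of the stem cell markers in WT as well as in KO. Erythroid markers fell in 9 of 10 cases, and all 6 megakaryocyte markers fell. Of 8 macrophage markers 3 fell, of 6 tested T and NK markers 3 fell and 1 rose, and the 5 tested B lineage markers had limma adjusted p-values from 0.079 to 0.759. Of 8 proliferation genes 4 rose. Of 7 adipocyte markers 3 were tested, and of these Fabp4 fell, from 29.2, 128 and 65.3 to 9.65, 15.7 and 7.77 (limma adjusted p = 0.0266). Lipe, between 1029 and 1399 in every library, and Cfd, between 0 and 23.6, were not called. Plin1, Lep and Cidec were at 0 in every library, and Adipoq was at 0 in all but KO replicate 3, where it stood at 3.45. Fewer cells of a type and less RNA per cell cannot be told apart in these bulk samples, and the part of the marker shifts in the values of the lipid genes was not tested.

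Most lipid synthesis genes stood higher in KO. Of the 31, 14 rose, 1 fell and 16 were not called, where 10.3% of all tested genes rose and 13% fell (23.3% in either direction). Fitted log2 fold changes were positive for 28 members, with a median of 0.55, against −0.02 over all tested genes. In 21 members every KO value lay above every WT value, a pattern held by 19.1% of all tested genes, and in 1 member every KO value lay below (21.7% of all tested genes). The count of calls changed with the library left out: without KO replicate 3, KO replicate 2, WT replicate 1, WT replicate 3 and WT replicate 2 the number of risen members was 5, 6, 8, 8 and 10, and without KO replicate 1 it was 18. It was 5 without the intensity trend and 8 with equal totals. Without KO replicate 2, and likewise without KO replicate 3, the calls for Mvk, Idi1, Fdft1, Sqle, Lss, Insig1, Acaca and Acly were lost, and in the latter case that for Hsd17b7 too. Leaving out WT replicate 1 ended those for Mvk, Idi1, Fdft1, Sqle, Lss, Insig1 and Acly, and leaving out WT replicate 3 those for Idi1, Fdft1, Sqle, Lss, Insig1, Acaca and Acly. The fit without WT replicate 2 lost Mvk, Sqle, Acaca and Acly, and that without KO replicate 1 lost Acaca. The rises of Fdps, Sc5d, Pmvk and Scap and the fall of Acss2 were called under each of the 17 alternatives run.

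**Figure D1:**
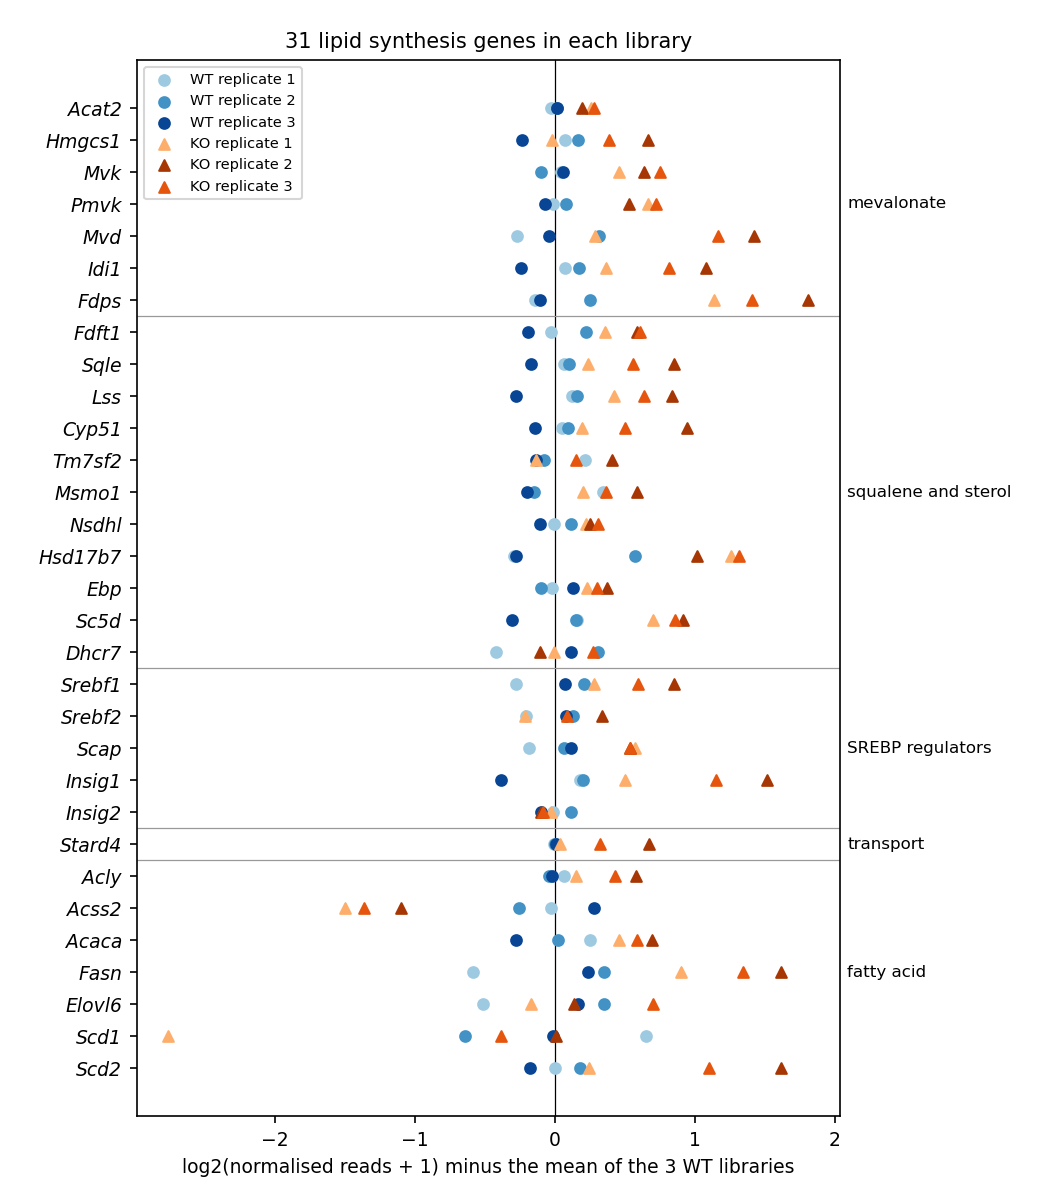
Each row is a gene in pathway order, and each point is a library, as log2(normalised reads + 1) minus the mean of the 3 WT libraries (circles WT, triangles KO). KO replicate 2 is the highest KO library in 21 of the 31 rows and KO replicate 1 the lowest in 25, and only Acss2 has all KO points to the left of all WT points.

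Windows around the promoters were searched in the RefSeq table for GRCm38.p6, each running from 250 bases before to 50 bases after a transcription start. Windows were found for 25 of the 31 members. The sterol regulatory element consensus TCACNCCAC, searched on both strands, was found for Hmgcs1 only, or 4% of the 25 members against 1.44% of all 27025 genes in the table. The CCAAT box, the core of the NF-Y site that often lies beside sterol regulatory elements, was found as CCAAT on either strand for 21 members (84%), against 41.1% of all genes. The GC box GGGCGG was found for 21 members (84%) against 38.2%, and the palindromic E-box CACGTG for 5 (20%) against 8.09%. All genes in the table were counted, without matching them to the members by expression or gene type. The CCAAT box was present for 9 of 11 risen members with a window and for 11 of 13 members that were not called. No search pattern lies within another, and a match is a string of letters, not shown to be a site of binding. Below are 4 upstream stretches, 5′ to 3′ on the gene's strand, chosen after their values were seen. Hmgcs1 (chr13:119690101-119690350, plus strand) is shown for its sterol element, Mvk (chr5:114444019-114444268, plus strand) for 5 CCAAT boxes, Insig1 (chr5:28071162-28071362, plus strand) as the sterol sensor with the largest rise, and Fasn (chr11:120824548-120824797, minus strand) for the fatty acid arm. Capitals mark the sterol regulatory element consensus and the CCAAT box, which reads ATTGG on the opposite strand.
Hmgcs1: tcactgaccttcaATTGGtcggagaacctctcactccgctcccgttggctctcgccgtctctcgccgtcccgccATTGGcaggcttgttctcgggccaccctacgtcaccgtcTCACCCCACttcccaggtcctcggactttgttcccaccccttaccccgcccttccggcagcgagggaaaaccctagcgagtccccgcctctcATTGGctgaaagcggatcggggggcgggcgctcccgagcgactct
Mvk: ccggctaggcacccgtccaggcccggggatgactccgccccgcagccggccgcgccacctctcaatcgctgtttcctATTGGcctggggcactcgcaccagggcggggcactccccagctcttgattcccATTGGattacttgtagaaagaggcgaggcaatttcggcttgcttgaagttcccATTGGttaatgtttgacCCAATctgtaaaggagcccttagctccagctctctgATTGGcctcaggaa
Insig1: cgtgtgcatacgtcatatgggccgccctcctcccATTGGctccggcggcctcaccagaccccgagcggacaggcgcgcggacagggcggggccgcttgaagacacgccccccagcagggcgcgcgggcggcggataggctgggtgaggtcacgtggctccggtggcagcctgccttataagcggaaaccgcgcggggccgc
Fasn: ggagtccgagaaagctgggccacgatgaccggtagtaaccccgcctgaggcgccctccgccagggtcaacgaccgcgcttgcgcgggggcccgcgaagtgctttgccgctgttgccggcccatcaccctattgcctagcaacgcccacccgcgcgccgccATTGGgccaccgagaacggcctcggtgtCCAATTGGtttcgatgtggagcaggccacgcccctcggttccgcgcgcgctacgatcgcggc
The Hmgcs1 sterol element begins 137 bases before the start site and lies between CCAAT boxes at 176 and 45 bases before it. In the Fasn stretch a CCAAT box and its reverse complement overlap in a single palindrome.

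Of the 7 enzymes that lead to farnesyl diphosphate, 4 rose and 3 were not called, where 10.3% of all tested genes rose. Fdps, farnesyl diphosphate synthase, makes the isoprenoid from which sterols, ubiquinone, dolichol and prenyl anchors branch, and had the largest rise of all members (ENSMUSG00000059743.12, GRCm38 chromosome 3, 89093588 to 89101959). Its normalised reads were 5154, 6756 and 5281 in WT and 12499.6, 19905 and 15110.0 in KO. The groups did not overlap, and the lowest KO library stood well above the highest WT library. Group means were 5730.2 ± 891 in WT and 15838 ± 3756 in KO (SD, n = 3 each), a log2 fold change of 1.45 ± 0.18 (SE, limma adjusted p = 0.00199). The 5 processed pseudogenes of Fdps with at least 90% identity include Gm3571, which averaged 47.8 reads, or 0.443% of Fdps. Fdps also shares 1124 exonic bases, 26.7% of its exons, with Gm43738 on the same strand. Gm43738 averaged 14.9 reads, or 0.14% of Fdps, and reads could be split between them. Pmvk, phosphomevalonate kinase, had 878, 936 and 841 in WT and 1403, 1276 and 1461 in KO, with tight groups and a log2 fold change of 0.64 ± 0.12 (limma adjusted p = 0.00788). Mvk, mevalonate kinase, rose from 469, 424 and 473 to 625, 709 and 764 (0.61 ± 0.15). Idi1, the isomerase that makes dimethylallyl diphosphate, had 3786, 4068 and 3054 in WT and 4649, 7612 and 6365 in KO. Its groups did not overlap (0.75 ± 0.19, limma adjusted p = 0.0254). A pseudogene of identical sequence over 684 bases, Gm13502, averaged 345 reads, or 7.02% of Idi1, so reads could be split between them.

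The other mevalonate enzymes were not called. Mvd, the diphosphomevalonate decarboxylase, had 395, 594 and 466 in WT and 584, 1282 and 1071 in KO, a mean at 202% of WT. KO replicate 1 lay within the WT range while the other KO libraries lay above it, and the log2 fold change of 0.96 ± 0.30 did not pass (limma adjusted p = 0.0558). It passed in edgeR and DESeq2 and without KO replicate 1. Hmgcs1, the cytosolic HMG-CoA synthase and a classical SREBP target, had 2689, 2871 and 2169.6 in WT and 2523, 4062 and 3345 in KO, and its groups overlapped through KO replicate 1 (0.34 ± 0.19, limma adjusted p = 0.234). Acat2, the acetoacetyl-CoA thiolase of the first step, stood between 4402 and 4539.8 in WT and between 5146 and 5441 in KO (0.24 ± 0.08, limma adjusted p = 0.0566). Its transcript is 97.7% identical over 1477 bases to that of Acat3, which averaged 3051 reads and rose (0.66, limma adjusted p = 0.0351). It is also 98.7% identical over 445 bases to that of Tcp1, a chaperonin subunit gene, which averaged 25698 reads and rose (0.58, limma adjusted p = 0.00321), so the Acat2 value is uncertain.

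Among the 11 enzymes from squalene to cholesterol, 5 rose and 6 were not called, where 10.3% of all tested genes rose. In 8 of them every KO value lay above every WT value, a pattern held by 19.1% of all tested genes. Sc5d, the desaturase that acts late in the sterol ring (GRCm38 chromosome 9, 42251595 to 42264256), had 2966, 2952 and 2149 in WT and 4321, 5018 and 4829 in KO. That gave means of 2689 ± 468 and 4723 ± 360.4 (SD, n = 3 each), a log2 fold change of 0.83 ± 0.14 (SE, limma adjusted p = 0.00642). Hsd17b7, a ketoreductase of sterol demethylation, had the larger fitted change of 1.20 ± 0.25 (limma adjusted p = 0.0123). Its WT libraries were uneven, at 402, 733 and 406, all below the KO values of 1178, 997 and 1229. The call did not hold when the intensity trend was left out of the fit. Fdft1, squalene synthase, commits farnesyl diphosphate to sterols and rose from 977, 1164 and 871 to 1276, 1500.1 and 1518 (0.52 ± 0.15). Its exons share 774 bases with Ctsb on the other strand, which averaged 28230.3 reads, and without a stated strand setting their reads cannot be told apart. Ctsb itself had a log2 fold change of 0.23 (limma adjusted p = 0.0756).

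Sqle, the squalene epoxidase, and Lss, the lanosterol synthase, carry out the oxidation and ring closure of squalene. Sqle rose from 3654, 3745 and 3096 to 4097, 6301 and 5136, with a limma adjusted p of 0.0449. The Sqle call was lost under 10 of 17 alternatives, up to an adjusted p of 0.132. Lss rose from 1371, 1404 and 1036 to 1684, 2249 and 1953 (0.63 ± 0.16, limma adjusted p = 0.0283), and lost its call under 6. Cyp51, the lanosterol demethylase, followed the same outline without a call, from 2751, 2839 and 2405 to 3038, 5104 and 3769.7 (0.55 ± 0.18, limma adjusted p = 0.0681). It shares 166 exonic bases with Akap9 on the other strand. KO replicate 2 was the highest KO library for Sqle, Lss and Cyp51, and KO replicate 1 the lowest.

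The remaining sterol enzymes were not called either. Ebp, the sterol isomerase, stood between 3386 and 3967 in WT and between 4258 and 4715 in KO, and Nsdhl, a sterol dehydrogenase, between 1989.8 and 2320.0 and between 2498 and 2660.1, so that in both genes the groups did not overlap. Their log2 fold changes were 0.30 ± 0.10 and 0.26 ± 0.10. Msmo1, the methylsterol oxidase, overlapped through its high WT replicate 1 of 2829, with KO values of 2555, 3332 and 2859 (0.38 ± 0.17). Tm7sf2, a sterol reductase, ranged from 234 to 298 in WT and from 234 to 342 in KO. It shares 532 exonic bases on the same strand with Vps51, which averaged 2033.8 reads, so the Tm7sf2 value is uncertain. Dhcr7, the reductase of the last step, averaged 1849 ± 456 in WT and 1888 ± 267 in KO (SD, n = 3 each). Its log2 fold change of 0.05 ± 0.20 turned to −0.16 without WT replicate 1, to −0.06 without KO replicate 3 and to −0.09 with equal totals.

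As a share of all reads, the 18 enzymes of the sterol route held 0.0815% to 0.0933% of all reads in WT libraries and 0.111% to 0.147% in KO libraries. The highest WT library was below the lowest KO library. Their fitted log2 fold changes were positive for 18 of 18, with a median of 0.55, against −0.02 over all tested genes. The sign of Tm7sf2 and Dhcr7 turned with equal totals.

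**Figure D2:**
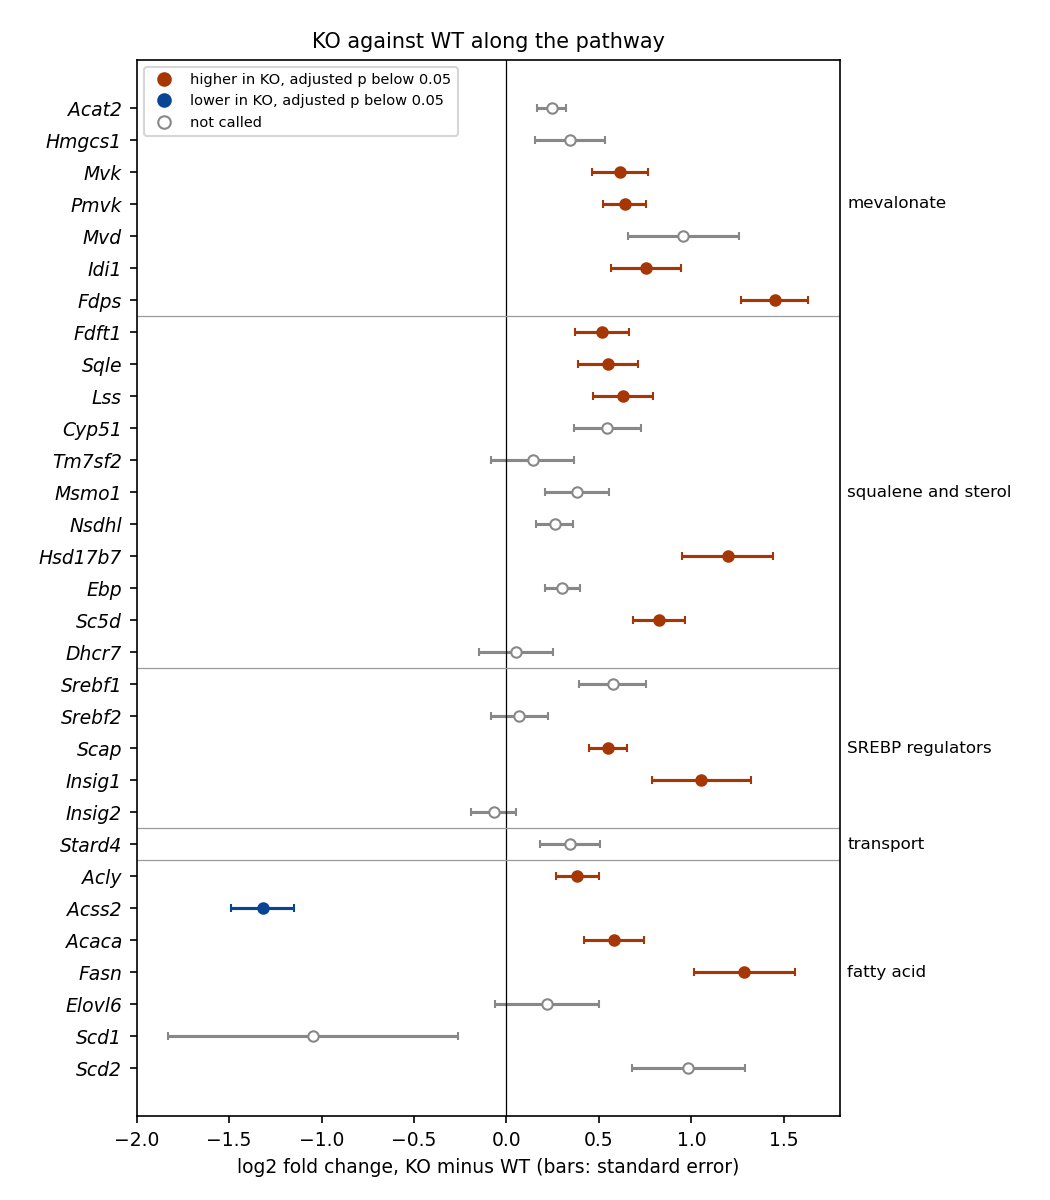
Points are log2 fold changes of KO minus WT from limma for the 31 genes in pathway order, with standard errors as bars, and filled points passed the adjusted p of 0.05. Filled points lie to the right in every block but that of Stard4, from 0.38 for Acly to 1.45 for Fdps, and Acss2 at −1.32 is the filled point on the left.

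The regulators did not move alike. Insig1, which retains SREBPs in the endoplasmic reticulum and is itself an SREBP target (GRCm38 chromosome 5, 28071363 to 28078662), had 1737, 1766 and 1177 in WT and 2168, 4382 and 3406 in KO. The groups did not overlap, but KO libraries differed 2.02-fold among themselves (log2 fold change 1.05 ± 0.27, limma adjusted p = 0.0265). Insig2, its paralogue with the same role, had 931, 1015 and 876 in WT and 923, 877 and 884 in KO, with overlapping groups and a log2 fold change of −0.07 ± 0.12, which turned to 0.06 with quantile normalization. Scap, the escort of SREBPs to the Golgi (GRCm38 chromosome 9, 110333288 to 110384950), rose from 3272, 3896 and 4024 to 5512, 5401 and 5401. Its KO libraries were the most alike of any member, 1.02-fold apart, and the log2 fold change was 0.55 ± 0.10 (limma adjusted p = 0.0079).

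Srebf1 and Srebf2 encode the SREBPs themselves, the former tied more to fatty acid genes and the latter to sterol genes. Srebf1 had 1616, 2262 and 2054 in WT and 2378, 3531 and 2951 in KO, without overlap, and its log2 fold change of 0.57 ± 0.18 did not pass (limma adjusted p = 0.0537), though it did in edgeR and DESeq2. Srebf2 had 5375, 6786 and 6572 in WT and 5355, 7841 and 6595 in KO, and its lowest and highest values were both KO libraries. Its log2 fold change was 0.07 ± 0.15, and the sign turned without WT replicate 1 or KO replicate 2, with quantile normalization and with equal totals. Stard4, a soluble sterol carrier induced by SREBPs, stood at 1546, 1559 and 1561 in WT and at 1593, 2484 and 1947 in KO. Its groups did not overlap, yet KO replicate 1 was close to WT (0.34 ± 0.16, limma adjusted p = 0.171).

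In the fatty acid arm 3 of 7 genes rose and 1 fell, where 10.3% of all tested genes rose and 13% fell. Fasn, the fatty acid synthase (GRCm38 chromosome 11, 120805846 to 120824547), had 1708, 3273 and 3025 in WT and 4801, 7868 and 6503 in KO. Averages were 2668 ± 841 for WT and 6391 ± 1536 for KO (SD, n = 3 each), with WT replicate 1 low, no overlap and a log2 fold change of 1.29 ± 0.27 (SE, limma adjusted p = 0.0133). The Fasn call was lost only without the intensity trend, at an adjusted p of 0.062. Acaca, the acetyl-CoA carboxylase that makes malonyl-CoA, rose from 932, 796 and 646 to 1077, 1263 and 1178 (0.58 ± 0.16), and lost its call under 8 of 17 alternatives. Acly, the citrate lyase that releases cytosolic acetyl-CoA, rose from 19455, 18021 and 18308 to 20595, 27709 and 25007 (0.38 ± 0.11). The call for Acly was lost under 11 alternatives, and its log2 fold change was 0.13 with quantile normalization.

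Acss2 was the member that fell. It encodes the cytosolic acetyl-CoA synthetase, which makes acetyl-CoA from acetate, and lies on GRCm38 chromosome 2, 155517948 to 155585724. WT libraries had 2441, 2088 and 3029.7 normalised reads and KO libraries 879.9, 1165 and 967, so that the highest KO library was far below the lowest WT library. The WT mean was 2519.5 ± 476 and the KO mean 1004 ± 146 (SD, n = 3 each), or 39.9% of WT, with a log2 fold change of −1.32 ± 0.17 (SE, limma adjusted p = 0.0022). Over the 17 alternatives it lay between −1.46 and −1.18. Gss, which shares 395 exonic bases with Acss2 on the other strand, had a log2 fold change of 0.12 (limma adjusted p = 0.5).

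The desaturases Scd1 and Scd2, which introduce the double bond of oleate, stood at WT levels of 9.2 and 1537 normalised reads per kilobase of exon. Scd2 had 8362, 9444 and 7383 in WT and 9876, 25534 and 17905 in KO. Its KO mean was 212% of WT without overlap of the groups, but the KO libraries were 2.59-fold apart, and the log2 fold change of 0.98 ± 0.30 did not pass (limma adjusted p = 0.0522). It passed in edgeR and DESeq2 and without KO replicate 1. Scd1 had 66.7, 26.6 and 41.6 in WT and 5.36, 42.2 and 31.9 in KO, too few reads for more than an overlap of the groups. Scd1 and Scd2 transcripts are 95.5% identical over 623 bases, so reads could be split between them. Elovl6, the elongase of palmitate, overlapped, with 883, 1609 and 1411 in WT and 1120.0, 1384 and 2050.1 in KO (0.22 ± 0.28). The sign of its change turned without WT replicate 1 and without KO replicate 3.

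**Figure D3:**
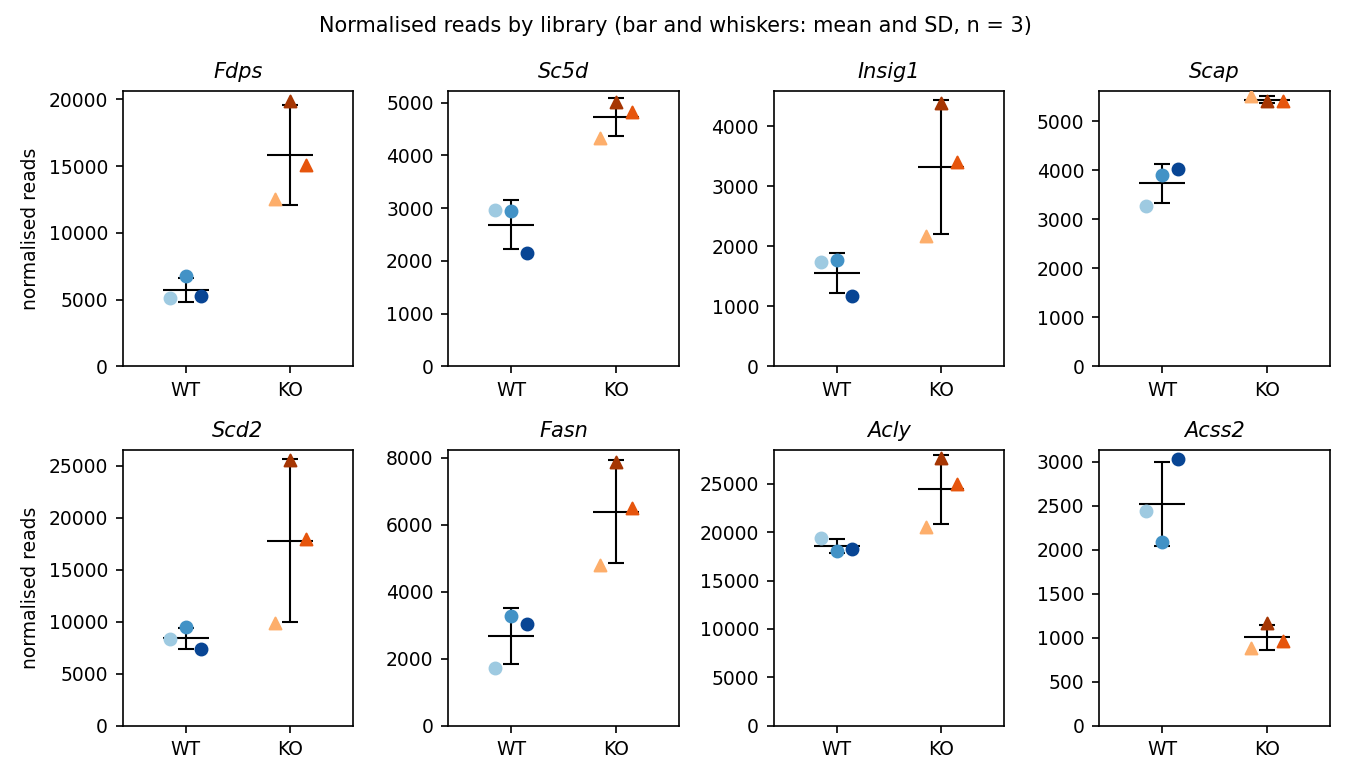
Each panel gives the normalised reads of a gene in the 3 WT libraries (circles) and 3 KO libraries (triangles), with mean and SD as bar and whiskers, on an axis from 0. KO values exceed all WT values in 7 panels, tightly for Scap and widely for Scd2 (9876 to 25534), and lie below them for Acss2.

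Levels of different members were compared per kilobase of exon, using the union of all annotated exons. In WT, Acly was the most abundant at 3522 normalised reads per kilobase, followed by Acat2 at 1765, Ebp at 1577, Scd2 and then Fdps at 1362. In KO, Fdps reached 3764 and Scd2 3253 per kilobase, behind Acly at 4629. The lowest WT levels per kilobase after Scd1 were those of Acaca at 46.4 and Tm7sf2 at 58.7. Annotated exons that are not used in these cells would lower such a level. Acaca has the longest exon union of the members, 17074 bases, and the use of single exons was not tested. A processed pseudogene, Gm5182, is 99.2% identical to the Acaca transcript over 6118 bases. It averaged 9.48 reads, and reads could be split between them.

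Members varied together across libraries within a genotype. Among KO libraries, replicate 2 was the highest for 21 of 31 members (67.7%) and replicate 1 the lowest for 25 (80.6%), where replicate 2 was the highest for 38% and replicate 1 the lowest for 42.2% of all tested genes. Among WT libraries, replicate 2 was the highest for 19 members (61.3%), against 32.5% of all tested genes. The median member stood 0.24, 0.64 and 0.56 above the WT mean on the log2 scale in KO replicates 1, 2 and 3, while the median of all tested genes lay at −0.006, −0.004 and −0.003. KO replicate 2 also had the highest summed stem cell markers of the KO libraries (49177, against 31028 in KO replicate 1) and the lowest summed granulocyte-monocyte progenitor markers (1879090, against 2091710 in KO replicate 1). In WT the order was reversed: replicate 2 had the lowest summed stem cell markers (88279) and the highest summed granulocyte-monocyte progenitor markers (1499910). Whether these go with the level of the lipid genes was not tested.

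Further genes of lipid metabolism, listed by function, went both ways, and their counts stand beside the 10.3% of all tested genes that rose and the 13% that fell. The shares that rose among genes of SREBP cleavage and of sterol transport, 1 of 10 and 1 of 11, were close to that of all tested genes. In the isoprenoid branch, which draws on farnesyl diphosphate, 5 of 13 rose and 8 were not called, with a median log2 fold change of 0.33. Zmpste24, the protease of prenylated proteins, rose from 4618, 5162 and 4779 to 9090.4, 8906 and 9448 (0.92 ± 0.08, limma adjusted p = 0.000729). Nus1, a subunit of the dolichol-making prenyltransferase (0.95 ± 0.11), Icmt, the methyltransferase of prenylated proteins (0.74 ± 0.12), and Pdss2, of the ubiquinone side chain (0.75 ± 0.15), rose as well. Of 10 tested genes of SREBP cleavage and sterol-regulated degradation 1 rose, Ubxn8 (0.31 ± 0.09), while the site protease Mbtps2 (0.44) and the ubiquitin ligase gene Syvn1 (0.21) were not called.

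Genes of sterol export and storage differed from each other. Of 9 LXR targets and efflux genes 3 fell and 2 rose. Abca1 and Abcg1, the sterol exporters induced by LXR, fell to 26.8% and 40.3% of their WT means. Abca1 had 450.3, 454 and 386 in WT and 83.6, 139 and 123 in KO (log2 fold change −1.92 ± 0.25, limma adjusted p = 0.00243), and Abcg1 fell by 1.33 ± 0.19. The LXR gene Nr1h2 also fell, by 0.39 on the log2 scale (it was singled out with its value in view), and the phospholipid acyltransferase Lpcat3 (0.36) and the HDL receptor Scarb1 (0.56) rose. Soat1, which esterifies cholesterol for storage, rose from 3661, 3914 and 3193 to 6383, 7396 and 6328 (0.90 ± 0.11, limma adjusted p = 0.0019). Hsd3b7 (−0.60) and the oxysterol hydroxylase Cyp7b1 fell, the latter from 181, 141 and 218 to 0, 14.7 and 3.45, while Cyp27a1 (−0.78) was not called. Of 11 genes of sterol transport 1 rose, Tmem97, an SREBP-induced membrane protein (1.17 ± 0.12, limma adjusted p = 0.0011), and Gramd1a (−0.39), Osbpl9 (−0.24) and Npc1 (−0.37) were not called. Lbr, the nuclear envelope protein with sterol reductase activity, rose by 0.46 ± 0.11.

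Around fatty acid synthesis, 7 of 17 tested genes of precursor and NADPH supply rose and 10 were not called, with a median log2 fold change of 0.54. They included the pentose phosphate enzymes Pgd (0.99 ± 0.11), G6pdx (0.78 ± 0.10) and Tkt (0.65 ± 0.11) and the acetoacetyl-CoA synthetase Aacs (0.79 ± 0.13). Of 15 tested genes of elongation and desaturation 3 rose and 12 were not called. Elovl3, among the risen, passed the filter on low values only through its KO libraries, so its call depends on that filter. Elovl5, the elongase of polyunsaturated fatty acids, rose from 9660.4, 11018 and 9922 to 14688, 17001 and 15815 (0.63 ± 0.09, limma adjusted p = 0.00313). Hacd2, a dehydratase of the elongation cycle, rose by 0.51 ± 0.13, and the desaturase gene Fads3 (−1.05) was not called. Elovl3 was at 0 in every WT library and at 18.2, 27.5 and 11.2 in KO, at least 6.19-fold higher against a floor of 3 reads in each WT library.

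**Figure D4:**
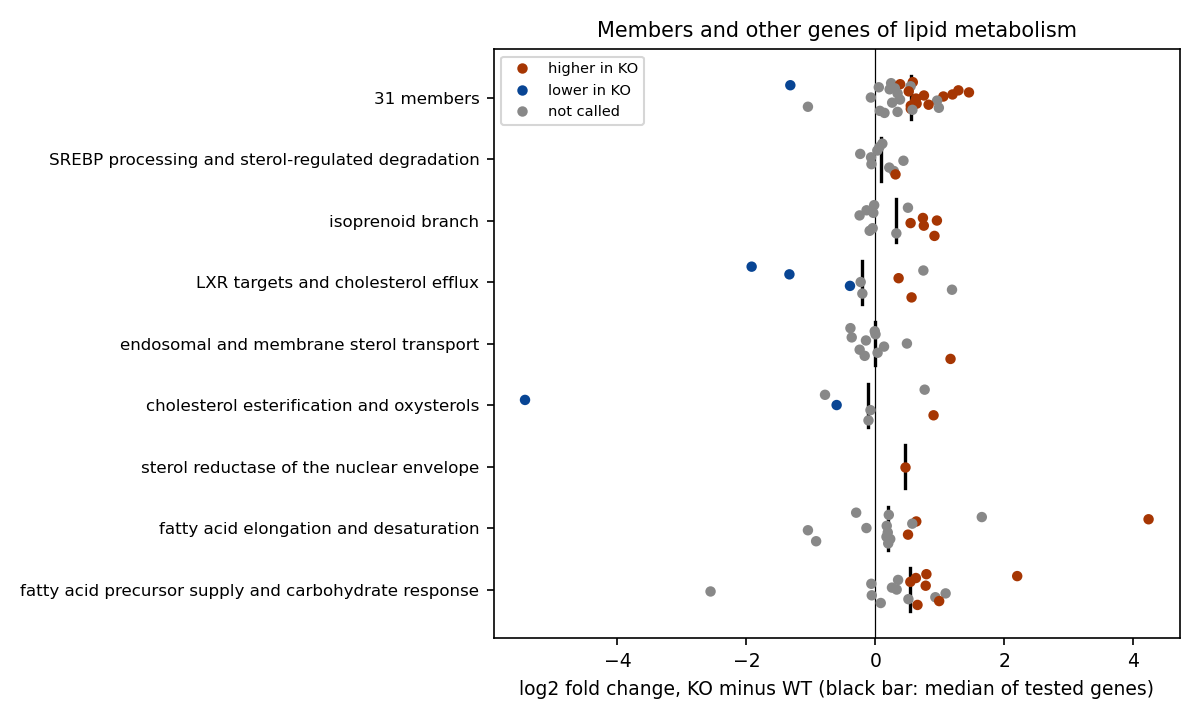
Each point is a tested gene, placed by its log2 fold change of KO minus WT and coloured by its call, for the 31 members and 8 further lists, with the median of each list as a black bar. The medians of the members (0.55) and of precursor supply (0.54) lie to the right of 0, and that of LXR targets and efflux (−0.20) to the left.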

How the data were processed

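The processing notes of the submitters name HISAT2 and StringTie, with mm8 and mm10 as builds and no roles, and the counting step and strand setting are not given in the sources used here. Each deposited file gives 1 signal value per gene, named expression per the file headers. Every value (100%) was a whole multiple of a step particular to its library, within 0.01 of a read, so the values are reads over a size factor. Coordinates equal those of GENCODE M21 (GRCm38) for 49035 of 49035 identifiers of identical version and for 28 of 31 members.

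KO was compared with WT on log2(value + 1) by limma 3.58.1 in R 4.3.3 with an intensity trend. Genes entered when 3 or more of the 6 libraries reached a value of 1, and fold changes of low genes are understated. P-values were two-sided and Benjamini-Hochberg adjusted over all 20136 genes tested. The 17 alternatives were no trend, upper quartile, TMM or quantile scaling, another pseudocount (0.1), a stricter filter (5) or none, edgeR 4.0.16 and DESeq2 1.42.0 on the recovered reads, a replicate block, each library left out in turn and, chosen after seeing the data, equal totals. The fits were tested on simulated data. No libraries agreed within sampling noise (chi-square per degree of freedom 38.0 or more). Near-identical copies were sought at 90% identity over 200 bases. Text names all members and, of each further list, up to 4 genes with the smallest p, of which 1 is not reported here. The members and lists were chosen with earlier results of these data known. March6 matched no row. A floor of 3 reads covers counting error only.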

Additional observations from a re-analysis of the deposited data

How the results depend on the processing

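The direction of Ppp2ca and of the 15 called members held under all 17 alternatives. The median over members ranged from 0.40 with KO replicate 2 left out to 0.60 without KO replicate 1, and the member that fell was called throughout. Without the intensity trend, 5 members and 1071 genes in all were higher. With equal totals, 8 members and 1337 genes were higher. That scaling moved the median of all genes by −0.13, and members stood 0.56 above that median, against 0.57 before. Over the 17 alternatives this distance ranged from 0.40 with quantile normalization to 0.62 without KO replicate 1, and was 0.42 without KO replicate 2. Leaving out each library gave 5 to 18 higher members, and 993 to 1787 higher and 1565 to 2604 lower genes in all, with fewer samples in each fit. The count test in edgeR called 2075 genes higher and 2496 lower, with 17 members higher, and DESeq2 called 19 members higher. Of 527 values of single members, 426 kept direction and call, 61 lost the call, 29 gained it and 11 changed sign. All 11 belong to uncalled members. Srebf2 turned to −0.049 with quantile normalization and −0.073 with equal totals, Insig2 to 0.058 with quantile normalization, and Tm7sf2 and Dhcr7 to −0.001 and −0.09 with equal totals. With a library left out, Dhcr7 ranged from −0.16 to 0.21, Srebf2 from −0.064 to 0.21 and Elovl6 from −0.035 to 0.42. The cause was not tested. Same-numbered WT and KO libraries did not deviate together (correlations of −0.03, 0.005 and −0.01 over 13290 genes). With 3 libraries in each group this cannot tell whether the numbers pair them, and the labels do not say. With the replicate block 13 members were higher and 1 lower, and 1705 genes higher and 2157 lower in all. At these depths Scd1, with 5.36 to 66.7 normalised reads, is the member limited most by counting.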
